A study of Mus musculus with 48 samples.

Results

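The glucocorticoid receptor, the enzyme that activates its ligand in liver and 6 of its target genes were followed over 48 h in mouse liver. The members were the genes Nr3c1, Hsd11b1, Tsc22d3, Fkbp5, Klf9, Sgk1, Tat and Zbtb16, chosen by their gene symbol in the platform annotation, and they were 8 of 18194 genes with a probe set of a single symbol. All 26 probe sets with one of these symbols were examined, of 45101 on the array. RNA came from livers of wildtype male C57BL/6J mice that were 6 weeks old when housed for the experiment. They were kept for 1 week in 12 h of light and 12 h of darkness. They were then moved to constant darkness without further treatment. Each hour from CT18 to CT65, 3 to 5 mice were combined into a pool that was read on 1 Affymetrix array. CT12 is subjective dusk, when the mice become active, and the pools up to CT41 formed the first cycle and those from CT42 on the second. With a single pool for each hour, every error given here comes from the spread of pools around a fitted curve or within a window of hours, and animal-to-animal spread was not measured.

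Corticosterone, the glucocorticoid of mice, rises before the active phase in nocturnal animals, and it binds the glucocorticoid receptor, the nuclear receptor encoded by Nr3c1. In the absence of ligand the receptor is held in the cytoplasm by Hsp90 and its cochaperones, and after binding it enters the nucleus and acts on genes that carry glucocorticoid response elements. In liver the hormone is known for its effect on gluconeogenesis and amino acid breakdown, and Hsd11b1 encodes the enzyme that regenerates active hormone from its inert 11-keto form inside the cell.

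Of the 26 member probe sets, 23 had a 24 h component at an adjusted p under 0.05 in limma, where 47.4% of all probe sets did. Read through the brightest probe set of each gene, 7 of 8 members were called, where 52.7% of all genes were, and Nr3c1 was not. The background share over all probe sets is high. It was 21.9% without the pools of CT60 to CT65 (16 of 26 member probe sets called) and 23.4% after quantile normalization (19 of 26). Of these pools CT61 and CT62 had the lowest median correlation with the other arrays (r of 0.9842 and 0.9881, against up to 0.9952 elsewhere). The amplitude, which is the distance from the mean of the curve to its peak, had a median of 0.31 on the log2 scale over the member probe sets and 0.047 over all probe sets. By Fisher's G-test, which the study used, and a cosine fit written here after COSOPT, the other program of the study, both at q under 0.05, 11 of 26 member probe sets were in the 24 h class (9.98% of all) and 1 in the 12 h class (0.772% of all). The 11 belonged to Tsc22d3, Fkbp5, Klf9 and Tat.

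**Figure D1:**
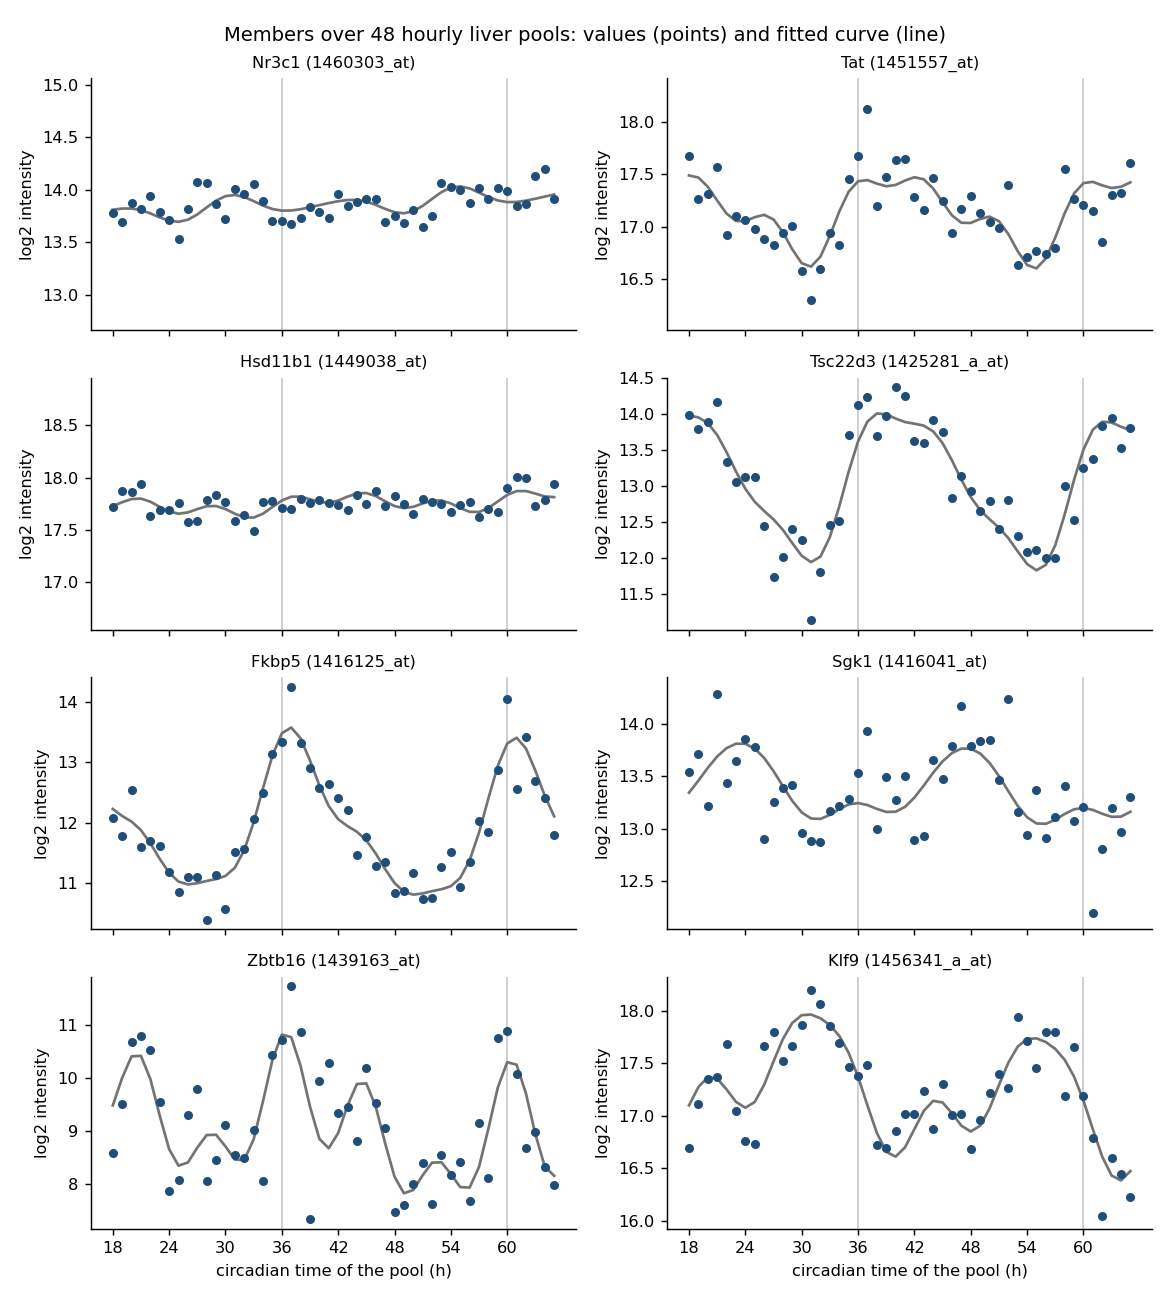
Log2 intensity of the 8 members through their brightest probe set (vertical axis, a scale of its own in each panel) against circadian time of the pool (horizontal axis, h), where points are the 48 pools, the line is the fitted curve with a linear trend and components of 24, 12 and 8 h, and vertical lines mark subjective dusk at CT36 and CT60. Fkbp5 and Zbtb16 were highest near dusk, Tsc22d3 and Tat after it, Klf9 in the subjective day, and Nr3c1 and Hsd11b1 stayed within 1.586-fold and 1.422-fold from the lowest to the highest pool.

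Promoter sequence was at hand for 6 of the 8 members, as 13 start sites of RefSeq on build GRCm38.p6. Sgk1 had 6 of these starts, Tsc22d3 had 3, and Hsd11b1, Fkbp5, Klf9 and Tat had 1 each. Sgk1 thus had the most windows in which a match could fall. The 250 bases before each start were searched on both strands for the palindromic glucocorticoid response element (AGAACA, 3 bases of any kind, TGTTCT), for a single arm of it (AGAACA), for the E-box bound by CLOCK and ARNTL (CACGTG), for the D-box bound by DBP (TTANGTAA) and for AGGTCA, which REV-ERB and ROR receptors recognise. The palindrome was present in 3 of 32851 such windows (0.00913%), and 1 of these lay before a start of Sgk1. A single arm was present in 16.1% of all windows and in 4 of 13 member windows, those of Sgk1 and Tsc22d3. The E-box was present in 6.02% of all windows and in 2 of the members' windows, before Fkbp5 and before the same start of Sgk1. AGGTCA was present in 14% of all windows and in 2 of the members' windows, both of Sgk1, and the D-box in 2.06% of all and in 0 of 13. Sequence farther from the starts was not searched, so a gene without a match may carry elements elsewhere. The 3 windows printed here hold the palindrome, the E-boxes and a single arm. Capitals mark the matches, and in Sgk1 the E-box shares its last 2 bases with a single arm. Sgk1 lies at chr10:21993640-21993889 on the plus strand, Fkbp5 at chr17:28486150-28486399 and Tsc22d3 at chrX:140600523-140600772, both on the minus strand.
Sgk1: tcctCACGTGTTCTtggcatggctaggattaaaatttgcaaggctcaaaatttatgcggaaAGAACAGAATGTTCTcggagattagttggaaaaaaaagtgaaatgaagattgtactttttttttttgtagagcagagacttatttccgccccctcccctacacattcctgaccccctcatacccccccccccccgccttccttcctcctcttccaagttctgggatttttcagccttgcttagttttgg
Fkbp5: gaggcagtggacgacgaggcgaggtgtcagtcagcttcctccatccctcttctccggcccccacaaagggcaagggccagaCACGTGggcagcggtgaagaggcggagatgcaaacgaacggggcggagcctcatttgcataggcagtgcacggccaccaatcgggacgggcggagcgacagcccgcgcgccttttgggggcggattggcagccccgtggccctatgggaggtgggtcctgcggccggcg
Tsc22d3: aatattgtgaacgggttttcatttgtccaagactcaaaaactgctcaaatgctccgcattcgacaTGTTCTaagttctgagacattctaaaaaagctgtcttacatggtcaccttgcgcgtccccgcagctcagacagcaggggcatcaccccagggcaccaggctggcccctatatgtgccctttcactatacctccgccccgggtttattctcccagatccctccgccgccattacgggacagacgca

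Nr3c1, the receptor itself, changed little over the day in its brightest probe set. This probe set, 1460303_at, ran from 11823 at CT25 over a median of 14945 to 18756 at CT64, all as intensity on the linear scale. The 10 dusk pools (CT10 to CT14 of each cycle) lay between 13080 and 16628 and the 10 dawn pools (CT22 to CT2) between 11823 and 15703, so that the groups overlapped. The 24 h amplitude was 0.037 ± 0.028 (SE, 48 pools) on the log2 scale, with an adjusted p of 0.488. In the second cycle alone, fitted with no trend, it was called (adjusted p = 0.0116) with a peak at CT12.8. A mean over the 6 probe sets of the gene did pass, with a peak at CT16.0.

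The other 5 probe sets of Nr3c1 gave no single peak time. Of these, 4 were called for 24 h, with peaks at CT13.4 (1457635_s_at), CT19.5 (1453860_s_at), CT17.3 (1421866_at) and CT17.1 (1431378_at) and amplitudes from 0.17 to 0.22 log2. None of the 6 was called by both rhythm tests, and the lowest correlation of another probe set with 1460303_at over the 48 pools was -0.24. Probe sets ending in _s_at, _x_at or _a_at may also bind related transcripts, and no level is compared between probe sets.

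Hsd11b1, measured by 1449038_at, was nearly flat. It ran from 184718 at CT33 over a median of 220752 to 262688 at CT61, and dusk pools (209016 to 262688) and dawn pools (196014 to 239407) overlapped. A shallow 24 h component was called, with an amplitude of 0.062 ± 0.018 log2, a peak at CT18.3 ± 1.19 h (SE) and an adjusted p of 0.0171. The call was lost with quantile normalization (adjusted p = 0.0687), with arrays centred on their medians (0.194), without CT60 to CT65 (0.0942) and in each cycle alone.

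Fkbp5, a cochaperone of Hsp90 that lowers the affinity of the receptor for its ligand, had the largest 24 h amplitude of the 8 members. Through 1416125_at it ran from 1341 at CT28 over a median of 3404 to 19468 at CT37, and in the second cycle from 1715 at CT51 to 17018 at CT60. The 10 dusk pools ranged from 3697 to 19468 with a median of 9641, and the 10 dawn pools from 1833 to 3320 with a median of 2312. Every dusk pool was above every dawn pool, a separation seen in 1 of 26 member probe sets and in 1.04% of all probe sets. The dusk mean was 3.83-fold the dawn mean (1.94 ± 0.24 log2, SE, adjusted p = 3.1e-05).

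The 24 h amplitude of Fkbp5 was 1.17 ± 0.074 log2, above that of 99.81% of all probe sets, with an adjusted p of 9.94e-16. Its 24 h peak stood at CT14.03, 2.03 h after dusk with a 95% interval of 1.55 to 2.50 h. A 12 h component was called as well (0.35 ± 0.070 log2, adjusted p = 0.00313), and the whole fitted curve was highest at CT12.9 and lowest at CT2.0, with a range of 6.40-fold. Both maxima were narrow, with 10313 at CT36, 19468 at CT37 and 10236 at CT38 in the first cycle, and 7484 at CT59, 17018 at CT60 and 6059 at CT61 in the second. A second probe set, 1448231_at, gave a peak at CT13.6, a dusk mean 3.71-fold the dawn mean (adjusted p = 7.9e-05) and a 12 h component (adjusted p = 0.0106). The third, 1447736_at, was dim, with a median of 73.0, and its amplitude was 0.027 log2.

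Zbtb16, a zinc finger repressor also called PLZF, was low and variable and reached its highest level in the same pool as Fkbp5. Through 1439163_at it ran from 159.7 at CT39 over a median of 513.1 to 3407 at CT37, a 21.3-fold range that lay between pools 2 h apart. Dusk pools ranged from 264.3 to 3407 with a median of 1534, and dawn pools from 175.5 to 1471 with a median of 399.4, so the windows overlapped. The dusk mean was 1.34 ± 0.50 log2 above the dawn mean (adjusted p = 0.142). The 24 h component was called, with an amplitude of 0.78 ± 0.16 log2, a peak at CT15.0 ± 0.82 h and an adjusted p of 0.001, although not by both rhythm tests, and not in the first cycle alone (adjusted p = 0.175). Its other probe sets were called with peaks at CT16.1 (1427638_at) and CT13.95 (1419874_x_at), and all 3 were highest at CT37.

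Tsc22d3, which encodes the anti-inflammatory protein GILZ, rose around dusk and was high in the first part of the subjective night. Through 1425281_a_at it ran from 2252 at CT31 over a median of 8960 to 21217 at CT40, and in the second cycle from 4115 at CT57 to 15723 at CT63. In the first cycle the rise came before dusk, from 5870 at CT34 to 17849 at CT36, and in the second it was at 9752 at CT60 and 14564 at CT62. The level fell from 18343 at CT21 to 10305 at CT22 and was at 7338 at CT46. Its dusk pools (5870 to 19395) spanned much of its range because the rise fell inside that window, and its dawn pools (5604 to 10305) overlapped them. The 24 h amplitude was 1.002 ± 0.071 log2 with an adjusted p of 3.25e-14, and the peak stood at CT17.2, 5.21 h after dusk (95% interval 4.62 to 5.80 h). The dusk mean was 0.48 ± 0.20 log2 above the dawn mean (adjusted p = 0.179). All 4 probe sets were called with peaks from CT16.7 to CT17.2, among them 1444365_at, which was at background with a median of 52.5 and an amplitude of 0.013 log2.

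Tat, the tyrosine aminotransferase that opens tyrosine breakdown in liver, is a classical target of the receptor and was abundant. Its only probe set, 1451557_at, ran from 80959 at CT31 over a median of 145635 to 284681 at CT37. Dusk pools (115873 to 284681) and dawn pools (120708 to 160135) overlapped, and the dusk mean was 0.28 ± 0.13 log2 above the dawn mean (adjusted p = 0.216). The 24 h component had an amplitude of 0.34 ± 0.050 log2, a peak at CT16.9 ± 0.62 h and an adjusted p of 5.24e-06. The whole fitted curve was lowest at CT6.8 and highest at CT18.2, with a lower maximum at CT12.7. That of Tsc22d3 was lowest at CT7.1 and highest at CT14.4.

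Sgk1, a kinase known for its control of sodium channels, was highest near subjective dawn. Its only probe set, 1416041_at, ran from 4690 at CT61 over a median of 10330 to 20019 at CT21. The dawn pools ranged from 7651 to 18496 with a median of 14140 and the dusk pools from 4690 to 15626 with a median of 9510, so the windows overlapped. The dusk mean was 0.54 ± 0.18 log2 below the dawn mean (adjusted p = 0.0969). The 24 h amplitude was 0.30 ± 0.079 log2 with an adjusted p of 0.00951, and the peak stood at CT23.1, 11.1 h after dusk (95% interval 9.25 to 12.96 h). The call was lost in the first cycle alone (adjusted p = 0.263, or 0.0885 with no trend). Without CT60 to CT65 the peak was at CT22.0 and the difference of dusk minus dawn was -0.32 log2. This probe set was not called by both rhythm tests, since the q of the G-test was 0.0573 and the cosine fit ended at the longest period searched, 30 h.

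Klf9, a Krüppel-like repressor, peaked in the subjective day and had 2 maxima a day. Through 1456341_a_at it ran from 67700 at CT62 over a median of 155686 to 300221 at CT31. Its dusk pools (67700 to 212107) and dawn pools (104916 to 210795) covered nearly the same range, and the means differed by 0.085 ± 0.18 log2 (adjusted p = 0.768), or by 0.27 log2 without CT60 to CT65 (adjusted p = 0.524). The 24 h amplitude was 0.49 ± 0.051 log2 with an adjusted p of 1.37e-09, and the peak stood at CT6.63, 5.37 h before dusk (95% interval 4.52 to 6.23 h before). The 12 h component, with an amplitude of 0.26 ± 0.051 log2 (adjusted p = 0.0025), was highest at CT8.06 and CT20.1. The whole fitted curve had its highest point at CT6.8, its lowest at CT15.8 and a lower maximum at CT20.4.

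The pattern of Klf9 was shared by 6 of its 7 probe sets. These were called for 24 h with peaks from CT5.66 to CT6.63, and all 6 were also called for 12 h with adjusted p from 9.36e-05 to 0.0025. In 1436952_at the 12 h amplitude (0.51 ± 0.093 log2) was above the 24 h amplitude (0.32 ± 0.091 log2), and this was the probe set in the 12 h class. The seventh, 1452723_at, was at background with a median of 60.8 and had neither component. In all, 9 of the 26 member probe sets were called for 12 h, where 4.89% of all were, and besides Klf9 they belonged to Fkbp5 and to Tsc22d3 (1420772_a_at, adjusted p = 0.0496). Fewer were called in single cycles, 1 in the first alone and 0 in the second alone, or 6 in the second when no trend was fitted. The share of all probe sets called for 12 h in single cycles is not given here, so this fall is not read as a trait of the members.

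**Figure D2:**
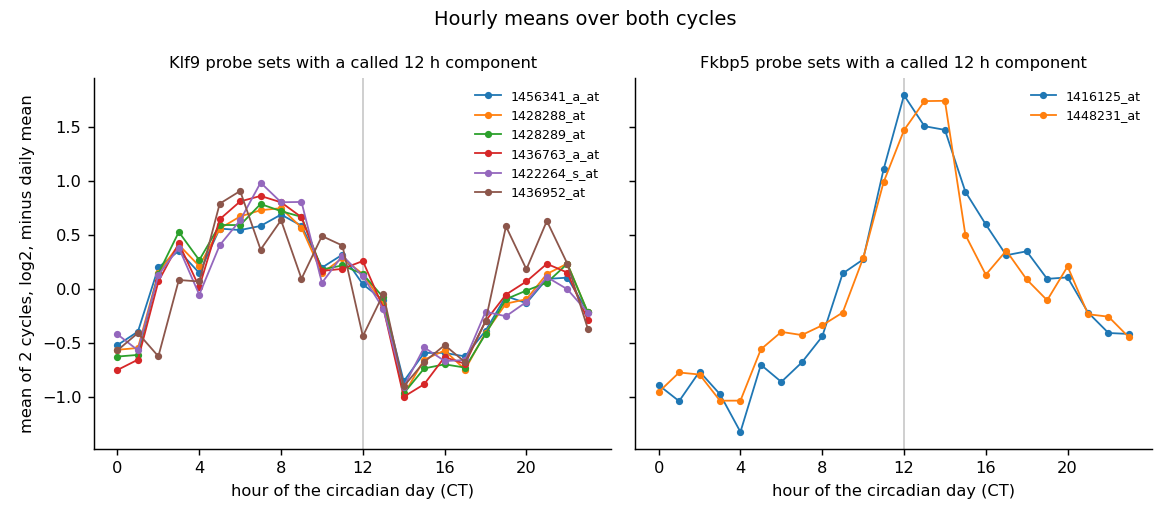
Mean log2 intensity of the 2 pools of each circadian hour minus the daily mean (vertical axis) against hour of the day (horizontal axis, CT), for the 6 Klf9 and 2 Fkbp5 probe sets with a called 12 h component, where the vertical line marks dusk. In all 6 Klf9 probe sets the lowest mean was at CT14, and in Fkbp5 the highest means lay from CT12 to CT14.

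The members' 24 h peaks were spread over the day. Counted from dusk, they came in the order Fkbp5 (CT14.03), Zbtb16 (CT15.0), Tat (CT16.9), Tsc22d3 (CT17.2), Hsd11b1 (CT18.3), Sgk1 (CT23.1) and Klf9 (CT6.63). The whole fitted curves, which add 12 and 8 h components, were highest in another order. This was Zbtb16 (CT12.5), Fkbp5 (CT12.9), Tsc22d3 (CT14.4), Tat (CT18.2), Hsd11b1 (CT20.6), Sgk1 (CT23.5) and Klf9 (CT6.8). The pairs were compared by the 24 h peak alone. Of the 21 pairs of these 7 genes, 13 were apart in 95% intervals widened for 21 comparisons (Bonferroni) and 8 were not. Tsc22d3 followed Fkbp5 by 3.18 h (widened interval 1.96 to 4.40 h), and Tat followed it by 2.86 h (0.68 to 5.04 h). Sgk1 followed Tsc22d3 by 5.89 h (2.79 to 8.99 h). Klf9 preceded Fkbp5 by 7.40 h (5.71 to 9.09 h) and was apart from every other called member.

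Neighbours in the order of 24 h peaks were mostly not separable. Zbtb16 followed Fkbp5 by 0.93 h, with a 95% interval from -0.60 to 2.46 h. Tat and Tsc22d3 differed by 0.32 h, with a 95% interval for Tat minus Tsc22d3 of -1.27 to 0.63 h on either side of 0. In the widened intervals Zbtb16 was also not separated from Tat or Tsc22d3, and Hsd11b1 from Tsc22d3, Tat, Zbtb16 or Sgk1. Some of these pairs had a 95% interval without widening that left out 0. They were Tsc22d3 after Zbtb16 (0.46 to 4.04 h), Hsd11b1 after Zbtb16 (0.11 to 6.58 h) and Sgk1 after Hsd11b1 (1.78 to 7.82 h). Leaving out 1 pool gave 12 to 14 pairs apart in widened intervals, with 12 of the 13 apart in each of these 48 fits. It moved no called peak by more than 0.60 h.

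Single cycles gave less stable times. Fitted with a trend in the first and in the second cycle, Fkbp5 peaked at CT14.5 and CT13.4 and Tsc22d3 at CT17.7 and CT18.0. Tat moved from CT16.9 to CT20.8 and Klf9 from CT4.46 to CT6.90. The peak of Sgk1 was at CT20.1 and CT0.29 and that of Zbtb16 at CT20.5 and CT14.05, both not called in the first cycle, and Hsd11b1 was called in neither, with CT19.8 and CT19.4. With no trend, a setting chosen after seeing the data, Fkbp5 peaked at CT14.3 and CT13.99, Tsc22d3 at CT17.1 and CT17.7, Tat at CT16.5 and CT18.0, and Klf9 at CT6.45 and CT5.71. Sgk1 was then at CT19.98 and CT0.78, Zbtb16 at CT16.4 and CT14.9 and Hsd11b1 at CT18.2 and CT16.2. With the trend, the first cycle held 4 separated pairs, all 4 among the 13, and the second 11, with 10 among the 13.

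**Figure D3:**
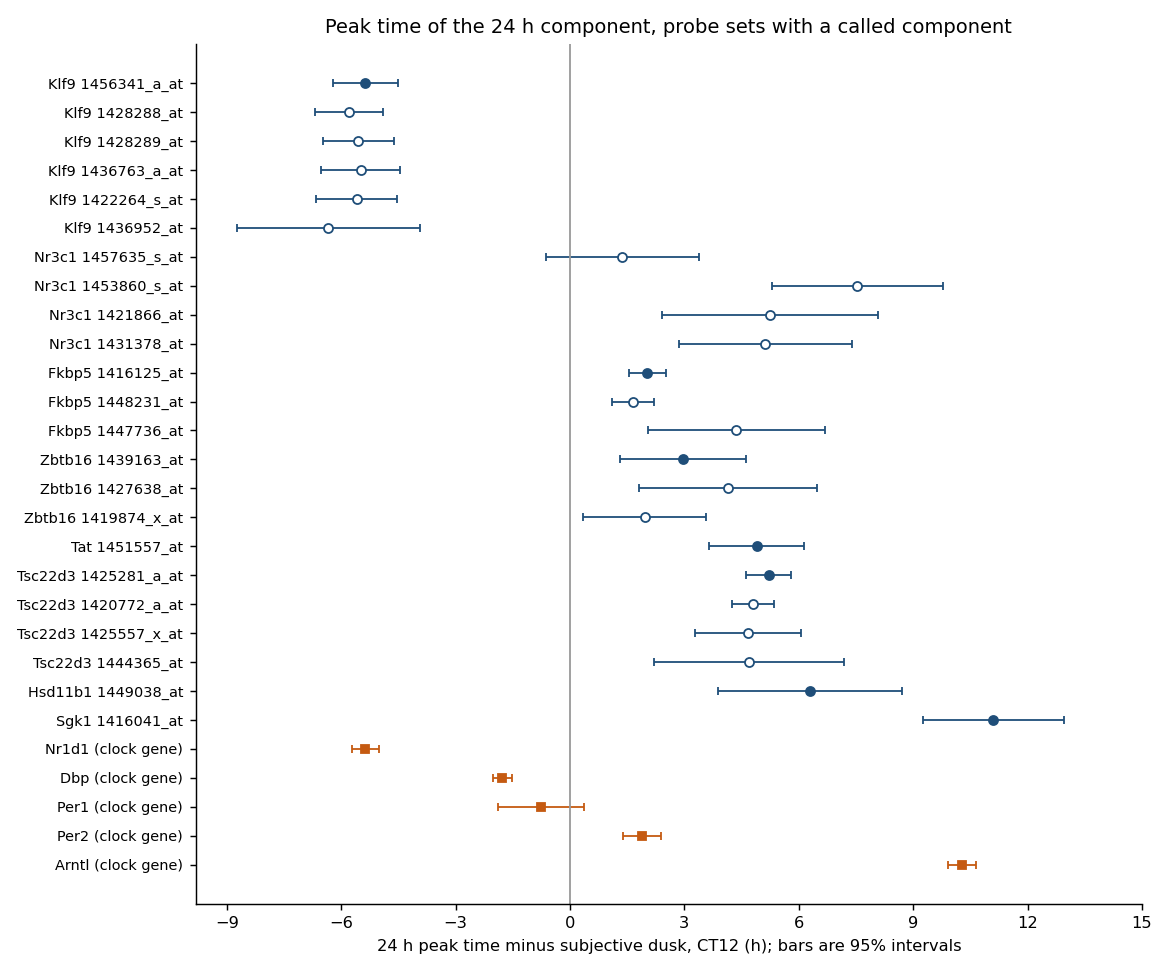
Peak time of the 24 h component in hours from subjective dusk (horizontal axis) for the 23 member probe sets with a called component (circles, filled for the brightest probe set of a gene) and for 5 clock genes (squares), with bars for 95% intervals. The 6 called Klf9 probe sets lie from CT5.66 to CT6.63 and Nr1d1 at CT6.63, the brighter Fkbp5 probe sets at CT13.6 and CT14.03 and Per2 at CT13.9, and Sgk1 at CT23.1 and Arntl at CT22.3.

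The clock genes gave a scale for these times. Nr1d1, Dbp, Per1, Per2 and Arntl peaked in this order at CT6.63, CT10.2, CT11.2, CT13.9 and CT22.3, with 24 h amplitudes from 0.42 log2 (Per1) to 3.85 log2 (Dbp). The peak of Klf9 differed from that of Nr1d1, which encodes REV-ERB alpha, by 0.0054 h with a 95% interval of -0.78 to 0.79 h. That of Fkbp5 fell 0.14 h after that of Per2 (Per2 minus Fkbp5, 95% interval -0.66 to 0.38 h), and that of Sgk1 0.83 h after that of Arntl (Arntl minus Sgk1, -2.62 to 0.96 h). An interval that holds 0 does not show that peaks coincide. Tsc22d3 and Tat peaked between Per2 and Arntl, 3.32 h and 3.00 h after Per2 (95% intervals 2.55 to 4.10 h and 1.60 to 4.40 h). These comparisons were chosen after the peak times were known, and they are descriptions.

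A direct comparison of windows called few members. Higher at dusk than at dawn were 3 of 26 member probe sets (3.34% of all) and lower were 0 (2.59% of all). The 3 were both bright probe sets of Fkbp5 and 1457635_s_at of Nr3c1, whose dusk pools (5760 to 10092) and dawn pools (5208 to 7984) overlapped and whose dusk mean was 0.28 ± 0.073 log2 higher (adjusted p = 0.0236). Windows narrowed to 3 h called 5 probe sets as higher (1.88% of all), Zbtb16 through 1439163_at among them at 2.50 ± 0.39 log2 (adjusted p = 0.00692). Leaving out the pool of CT34, the earliest dusk pool of the first cycle, called 7 (3.08% of all), and then Tsc22d3 (0.61 log2) and Zbtb16 (1.61 log2) passed. Sgk1 passed as lower at dusk without the pool of CT26 (-0.64 log2), without that of CT37 (-0.63 log2), with windows of 7 h (-0.49 log2) and in the brighter 50% of probe sets, settings under which 2.31%, 2.27%, 5.02% and 6.63% of all were lower.

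**Figure D4:**
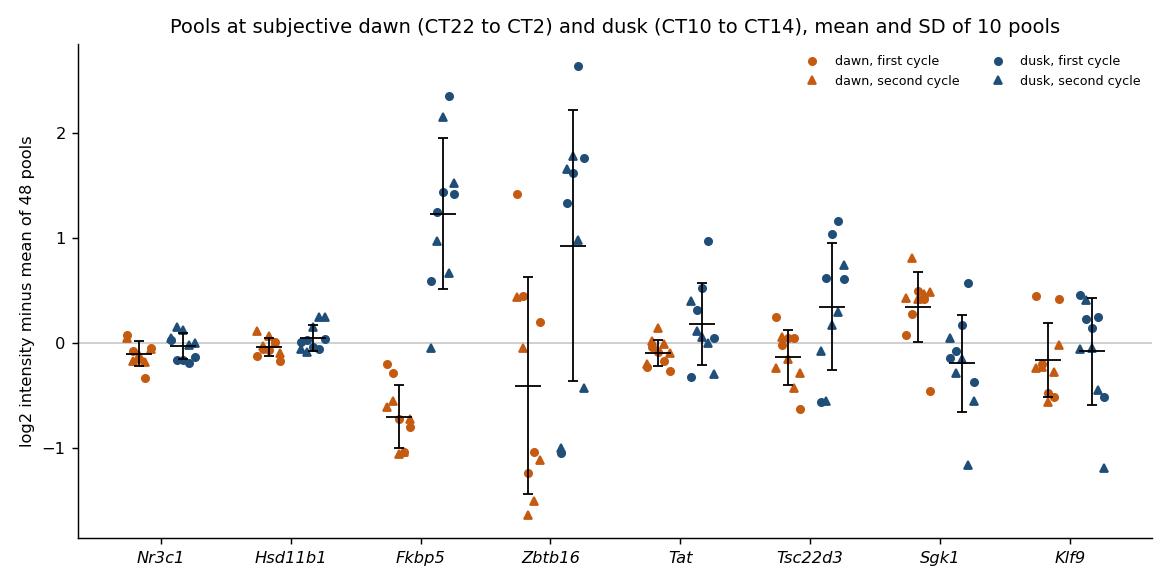
Log2 intensity minus the mean of the 48 pools (vertical axis) in the 10 dawn pools (orange) and the 10 dusk pools (blue) of each member, with circles for the first cycle, triangles for the second and bars for mean and SD. The groups are apart in Fkbp5 and overlap in the other 7 genes.

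The 24 h component was then compared between cycles. A difference was called in 3 of 26 member probe sets (5.06% of all), 1457635_s_at and 1421867_at of Nr3c1 and that of Sgk1, and in 0 of 26 without CT60 to CT65, a setting that called 0.0111% of all. The fitted peaks of the first and second cycle were then CT20.5 and CT1.07 for Sgk1, CT9.52 and CT14.3 for 1457635_s_at and CT2.18 and CT9.96 for 1421867_at. With the 24 pairs of pools of the same hour as a block, 1 of 26 was called (2.72% of all), 1457635_s_at with an adjusted p of 0.0304, while 1421867_at had 0.0883 and Sgk1 0.109. After quantile normalization the brightest probe set of Nr3c1, 1460303_at, was called as well (adjusted p = 0.0192, CT3.20 and CT14.6), and Sgk1 was not. In the last 6 pools the members did not move together. Compared with CT36 to CT41, 24 h earlier, mean log2 values were lower by 0.99 for Zbtb16, 0.51 for Sgk1, 0.49 for Tsc22d3, 0.48 for Klf9, 0.38 for Tat and 0.35 for Fkbp5, and higher by 0.25 for Nr3c1 and 0.14 for Hsd11b1. Nr3c1 ranged from 13080 to 14628 in CT36 to CT41 and from 14716 to 18756 in the last 6 pools. The share of all probe sets that separated in this way in the last 6 pools is not given here. The arrays of these 6 pools also differed as a whole, with medians from 104 to 110.9 against 97.3 to 102.1 in CT36 to CT41. Their 75th percentiles ran from 797.1 to 944.8, against 937.9 to 1028.9. These pools were also the longest in darkness, and a shift of the arrays and time in darkness cannot be told apart.

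Pool-by-pool deviations from the fitted curves linked 3 targets. After the trend and the 24, 12 and 8 h components were taken out, the deviations of Sgk1 and Tat had a Pearson r of 0.745 and a Spearman rho of 0.75 over 48 pools, and in each gene the other ranked 1 among 18193 genes. Tsc22d3 and Tat had an r of 0.688 (rho 0.732), where each ranked 3 for the other. The link of Tsc22d3 and Sgk1 was weaker, with an r of 0.578 (rho 0.608). Sgk1 ranked 74 for Tsc22d3, and Tsc22d3 ranked 21 for Sgk1. Over all 21 pairs of called members r ran from -0.607 to 0.745 with a median of -0.0059. The pair of Sgk1 and Tat gave 0.764 within the first cycle, 0.728 within the second, and 0.724 without its 2 most distant pools, CT61 and CT52.

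The pools of CT37 and CT52 were examples of these shared deviations. At CT37 Sgk1 was 0.71, Tat 0.68 and Tsc22d3 0.35 log2 above its curve, and at CT52, in the subjective day, Sgk1 was 0.87, Tat 0.46 and Tsc22d3 0.53 log2 above. Sgk1 then stood at 19264, between 11320 at CT51 and 9139 at CT53, and Tat at 172166, between 130100 and 101909. Klf9 and Zbtb16 formed another such pair, with r of 0.645 (rho 0.668), where Zbtb16 ranked 46 for Klf9 and Klf9 ranked 2 for Zbtb16. Hsd11b1 and Klf9 deviated in opposite directions, with r of -0.607 (rho -0.616). The values of a pool come from the same mice and the same array, and the pairs were picked after all 21 were seen, so they are given with no test.

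**Figure D5:**
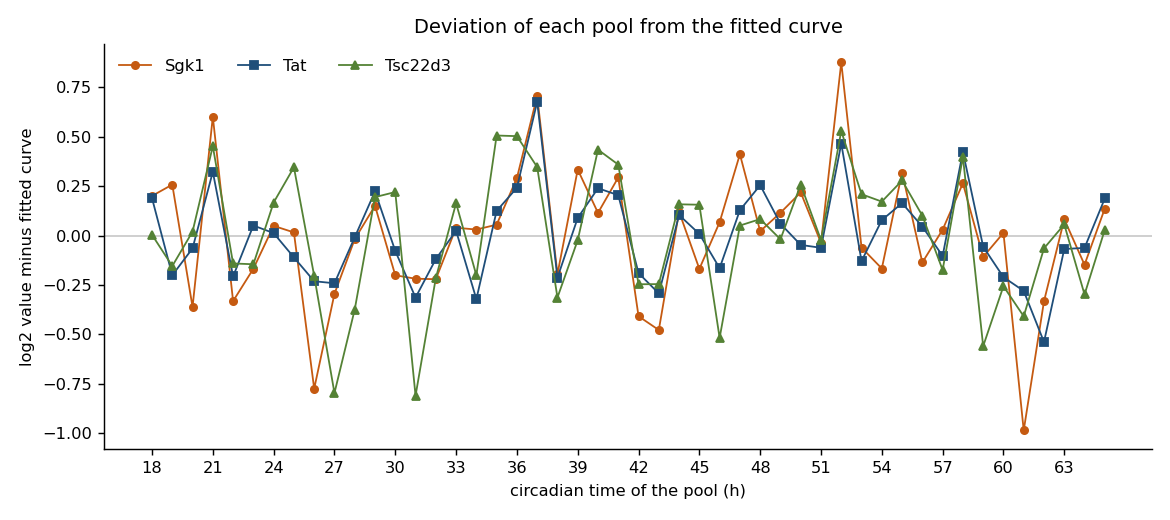
Deviation of Sgk1, Tat and Tsc22d3 from the fitted curve in log2 units (vertical axis) in each of the 48 pools (horizontal axis, circadian time in h). The 3 genes rose above their curves together at CT21, CT37, CT52 and CT58 and fell below them together at CT27, CT31, CT42 and CT61.

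The genes whose log2 values followed a member most closely over the 48 pools were found among all 18194 genes, as a description. For Tsc22d3 they were Fgf1 (Pearson r 0.918), Mcrip2 (0.854) and Tcim (0.853), and for Fkbp5 Nampt (0.890), Nrg4 (0.889) and St3gal5 (0.888). Klf9 was followed by Slc8b1 (0.906), Rbm33 (0.905) and Flcn (0.902). For Tat the closest was another member, Tsc22d3 (0.837), before Dusp1 (0.765), a phosphatase also induced by glucocorticoids, and Klf3 (0.760). The closest genes to Hsd11b1 were Rps3 (0.868), Mcee (0.858) and Mpc1 (0.844). Weaker likeness was found for Sgk1, with Degs1 (0.666), Ppp1r3c (0.657) and Trappc8 (0.651), and for Zbtb16, with Tbc1d8 (0.695), Gfra1 (0.665) and C9orf72 (0.655).

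Of the chaperones that hold the receptor, 3 peaked from CT18.6 to CT19.3, against CT14.03 for Fkbp5, and 2 at CT14.3 and CT14.9, with no test of these differences. Of 6 measured genes 5 were called for 24 h, where 52.7% of all genes were, and the same 5 for 12 h (7.11% of all genes). Fkbp4, the immunophilin that competes with Fkbp5 for Hsp90, had an amplitude of 0.46 ± 0.027 log2 and a peak at CT19.2 (adjusted p = 1.36e-16). Hsp90aa1, an inducible Hsp90, had 0.67 ± 0.041 log2 and CT19.3 (4e-16), and Stip1, which bridges Hsp70 and Hsp90, 0.56 ± 0.052 log2 and CT18.6 (9.7e-11). Hspa8, itself an Hsp70, had its 24 h peak at CT14.3 and Dnajb1, an Hsp70 partner, at CT14.9. Hspa8 was in the 12 h class of both tests. Its 12 h amplitude (0.36 ± 0.029 log2, maxima at CT2.26 and CT14.3) was above its 24 h amplitude (0.30 ± 0.030 log2). St13 was not called (adjusted p = 0.47). The median amplitude of the list was 0.46 log2, against 0.064 over all genes.

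Of 6 genes of corticosteroid metabolism and transport, 5 were called for 24 h (52.7% of all genes) and 2 were higher at dusk (4.91% of all genes). Serpina6, which encodes the corticosteroid-binding globulin of plasma, had an amplitude of 0.52 ± 0.035 log2, a peak at CT13.5 and a dusk mean 0.90 log2 above the dawn mean (adjusted p = 7.8e-06). Abcb1a, a transporter that exports steroids, peaked at CT12.1 and was 0.94 log2 higher at dusk (adjusted p = 0.0012). Nr3c2, the mineralocorticoid receptor, which also binds corticosterone, peaked at CT7.84 with an amplitude of 0.60 ± 0.046 log2. H6pd, which supplies Hsd11b1 with its cofactor, peaked at CT5.09 (0.45 ± 0.060 log2), far from the CT18.3 of Hsd11b1, and Akr1d1, a steroid reductase, at CT18.5 (0.16 ± 0.045 log2). Hsd11b2, which inactivates the hormone, was near background and not called (adjusted p = 0.0661). H6pd, Serpina6 and Nr3c2, 3 of the 6, were also called for 12 h (7.11% of all genes).

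Among 8 coregulators of the receptor 6 were called for 24 h (52.7% of all genes), with a median amplitude of 0.30 log2. Ncoa2 peaked at CT6.57 (0.36 ± 0.043 log2, adjusted p = 4.09e-08) and Crebbp, an acetyltransferase, at CT4.80 (0.65 ± 0.097 log2, adjusted p = 5.71e-06). Nrip1, a corepressor, peaked at CT22.2 (0.29 ± 0.045 log2) and was the only one lower at dusk (3.61% of all genes), by 0.53 log2 (adjusted p = 9.82e-04). Ppargc1a was the only 1 of the 8 called for 12 h (adjusted p = 0.00401), where 7.11% of all genes were.

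Of 17 other genes known to be induced by glucocorticoids 16 were called for 24 h (52.7% of all genes), and 13 were in the 24 h class of both tests (14.2% of all genes), with peaks of the called genes from CT8.42 (Nfkbia) to CT23.0 (Pdk4). At dusk 9 were higher (4.91% of all genes) and 3 lower (3.61%) than at dawn. Lpin1, a phosphatidate phosphatase, peaked at CT12.0 with an amplitude of 1.63 ± 0.12 log2 and was 3.16 log2 higher at dusk (adjusted p = 9.72e-06). Cebpd, a transcription factor, peaked at CT13.7 (0.66 ± 0.076 log2) and Per1, a clock gene with a response element of its own, at CT11.2 (0.42 ± 0.068 log2). The 3 lower at dusk were Pdk4, an inhibitor of glucose oxidation (2.69 log2 lower, adjusted p = 1.61e-07), G6pc, the last enzyme of glucose release (0.63 log2, adjusted p = 0.0386), and Cdkn1a, a cell cycle inhibitor (0.78 log2, adjusted p = 0.0028). Their peaks at CT23.0, CT21.9 and CT22.0 lay near that of Sgk1. Igfbp1 was not called (adjusted p = 0.0721).

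The cell types of the tissue were checked through marker lists. All 5 hepatocyte markers were abundant, with medians of at least 317256. Their summed level ranged from 3059590 to 3225180 at dusk and from 3070470 to 3194640 at dawn. A 24 h component was called in 1 of these 5, where 52.7% of all genes had one. Summed endothelial markers ranged from 23693 to 28722 at dusk and from 25152 to 31552 at dawn, with 5 of 6 genes called for 24 h. Kupffer cell markers ranged from 35367 to 52331 at dusk and from 36811 to 48540 at dawn, with 3 of 5 called (52.7% of all genes). Lymphocyte markers summed to 593.6 to 743.7 at dusk and 596.9 to 766.8 at dawn, with 2 of 5 at a median under 100 and 0 of 5 called. The ranges overlapped in every list, but a sum mostly follows its brightest markers and can hide rhythms of the others. Called endothelial markers peaked at CT4.10 (Kdr), CT4.44 (Stab2), CT4.65 (Cdh5), CT18.0 (Lyve1) and CT19.8 (Clec4g). Called Kupffer cell markers peaked at CT20.1 (C1qa), CT20.6 (Adgre1) and CT21.3 (Clec4f). The part of these cells in the members' rhythms was not tested. In whole liver, fewer cells of a type and less RNA per cell cannot be told apart.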

How the data were processed

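Total RNA of 48 liver pools was read on Affymetrix Mouse Genome 430 2.0 arrays. Per the paper's methods the authors used GCRMA, a background correction with quantile normalization and probe summary, and the labels name MAS5 without a version. The deposited values are linear intensities with array medians from 95.2 to 110.9. Precision is limited by having 48 arrays. They were taken to log2 here with no pseudocount. Of 45101 probe sets, 34958 had 1 gene symbol in the platform annotation, 932 several and 9211 none, and each gene was represented by its brightest probe set (highest mean log2).

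All probe sets were fitted in limma 3.58.1 (R 4.3.3) with a linear trend and pairs of 24, 12 and 8 h, with moderated F tests and Benjamini-Hochberg adjustment over all probe sets. Standard errors of peak times came from the coefficients, and those of differences also from the residual covariance. The contrast of dusk and dawn had cycle as a covariate. The G-test used 23 Fourier frequencies and the cosine fit, written here after COSOPT and not that program, 1000 scramblings and a period grid from 4 h up to 30 h spaced by 0.1 h, with Storey q (Python 3.11.15, numpy 2.4.6, scipy 1.17.1). Both were tested on simulated data. Promoters were those of RefSeq.

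Members and lists were chosen with earlier results of these data known. Named were all members, the 3 called genes with the smallest p of each list, clock genes, members of counts of 5 or fewer, and the 3 closest genes. Listed genes with no probe set of a single symbol in the annotation used, among them Hsp90ab1, Ptges3, Ppid, Srd5a1 and Ncor1, were not analysed here. Alternatives covered scale, trend, normalization, a filter on dim probe sets, windows and pools left out.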

Additional observations from a re-analysis of the deposited data

Results flagged for a closer look

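A difference of the 24 h component between the first and the second cycle was called in 3 member probe sets, by the interaction of cycle with the 24 h pair in limma. In Nr3c1 1457635_s_at (adjusted p = 0.00983) the 24 h peak moved from CT9.25 with an amplitude of 0.15 log2 to CT14.7 with 0.34 log2, and its highest pool was CT63, at 15776 against a median of 7062. In Nr3c1 1421867_at (adjusted p = 0.0461) it moved from CT1.81 (0.13 log2) to CT11.6 (0.16 log2). In Sgk1 (adjusted p = 0.0424) it moved from CT21.2 (0.40 log2) to CT0.47 (0.64 log2), with its lowest pool at CT61. Without CT60 to CT65, where 0.0111% of all probe sets were called, all 3 had an adjusted p of 0.639, with peaks from CT9.52 to CT14.3 (1457635_s_at, amplitudes 0.17 and 0.21 log2), from CT2.18 to CT9.96 (1421867_at, 0.12 and 0.14 log2) and from CT20.5 to CT1.07 (Sgk1, 0.32 and 0.52 log2). With pools of the same hour as a block the adjusted p was 0.0304, 0.0883 and 0.109 in this order. After quantile normalization Sgk1 had 0.094, Nr3c1 1457635_s_at 0.00664, Nr3c1 1421867_at 0.0218 and the brightest Nr3c1 probe set, 1460303_at, 0.0192.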

How the results depend on the processing

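The 23 member probe sets called for 24 h became 11 in the first cycle alone (8.01% of all probe sets) and 12 with no trend beside it (13.6%), the 7 genes became 4 under both, the 13 separated pairs became 4 and 5, and the 9 calls for 12 h became 1 under both. The second cycle alone gave 19 probe sets (46.5% of all), 6 genes, 11 pairs and 0 calls for 12 h, and 23 (54.1%), 7, 14 and 6 with no trend. Shares over all probe sets are not given for the 12 h calls of single cycles. Without CT60 to CT65, 6 genes, 11 pairs and 9 calls for 12 h were left. Median centring left 17 probe sets called for 24 h, where the share of all probe sets fell from 47.4% to 22.4%. The 3 probe sets higher at dusk became 5 with 3 h windows (1.88% of all) and 5 in the brighter 50% of probe sets (8.2%). The 0 lower at dusk became 1 with 7 h windows (5.02% of all) and 1 in the brighter 50% (6.63%). Leaving out each pool in turn gave 3 to 7 higher (2.74% to 3.76% of all) and 0 to 1 lower at dusk (2.2% to 2.96%). It gave 22 to 24 probe sets and 7 genes called for 24 h, and 8 to 9 called for 12 h, with shares over all not given here. The 3 differences between cycles became 0 without CT60 to CT65 (0.0111% of all) and 1 with the hour of the day as a replicate block, which pairs the 24 hours of both cycles (2.72% of all). The dusk difference of Klf9, not called, became -0.0044 log2 with 7 h windows. In these cases the cause was not tested. Peak times of members moved by over 1 SE in 23 cases and by less in 9 in single cycles, where the amplitude's call was lost in 8 and gained in 1, and in 5 against 59 under the other settings, where it was lost in 3. Single cycles with no trend, the block, settings of the 24 h component applied to the 12 h component, and linear scale, median centring and the dim filter for peak times were chosen after seeing the data. Dim probe sets, 3 with a median under 100, are limited by signal over background.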
